A study of Mus musculus with 10 samples.

Results

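The growth hormone and IGF1 axis of the liver was followed through 10 genes taken by symbol from the deposited gene count table: Ghr, Stat5b, Socs2, Cish, Igf1, Igfals, Igfbp1, Igfbp2, Igfbp3 and Igfbp4. All 10 were found among the 17359 genes of the table, and each was among the 12789 genes kept by a filter on low counts. The livers came from mice on a high-fat diet, which all groups shared. AL mice ate ad libitum (3 libraries, numbered 2 to 4). The other mice repeated a weekly cycle: a 50% cut in calories on day 1, a 70% cut on day 2 and day 3, a 50% cut on day 4, then unlimited food from day 5 through day 7. Those sampled on day 3 form the low-calorie group LC (4 libraries), and those sampled on day 7 form the refed group RF (3 libraries). Neither the labels nor the design text give strain, sex, age, number of cycles or time of day. The labels do not say that libraries of a group came from separate animals, so p-values measure only the spread between these libraries.

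Growth hormone from the pituitary binds its receptor, Ghr, on hepatocytes, and the kinase JAK2 then activates the transcription factor STAT5, whose STAT5B form carries most of the signal in liver. STAT5 drives Igf1, the hormone IGF1 that the liver releases into blood, Igfals, and the feedback inhibitors Socs2 and Cish. IGF1 circulates bound to IGF-binding proteins, which set how much of it reaches its receptor, and fasting is known to lower the response of the liver to growth hormone.

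Library totals lay between 13871533 and 15899479 expected counts, and levels below are CPM (counts scaled to a common library size) after TMM scaling, a correction for a few very abundant genes taking different shares of the libraries. This correction bears on every LC value: with library totals alone, the median gene moved up by 0.313 on the log2 scale in LC against AL and by -0.205 in RF against LC. Of 14 hepatocyte markers measured, 9 fell in LC against AL, and with library totals alone 2 fell and 1 rose. The median log2 change of these markers was -0.48 under TMM scaling and -0.164 with library totals alone. Their summed level was 72330 to 82970 CPM in LC, 100700 to 122100 CPM in AL and 95780 to 102100 CPM in RF. Summed endothelial markers stood at 443 to 462 CPM in LC, 312 to 327 CPM in AL and 398 to 479 CPM in RF. Of 14, 5 were higher in LC against AL. In RF against AL 0 were called, and 9 were higher at an unadjusted p below 0.05. Sums over the 15 Kupffer cell markers found spanned 144 to 261 CPM in LC, 181 to 268 CPM in AL and 195 to 280 CPM in RF. Of the 14 Kupffer cell markers tested, 3 were lower in LC against AL. Summed stellate cell markers were 276 to 365 CPM in LC, 340 to 359 CPM in AL and 412 to 467 CPM in RF, with 6 of 13 higher in RF against LC. Of 5 blood cell markers tested, 2 were lower in LC against AL. Sums over all 6 blood cell markers found, tested or not, were 274 to 407 CPM in LC, 474 to 716 CPM in AL and 325 to 1029 CPM in RF. The part of these shifts in the results below was not tested. At the adjusted p of 0.05 used for the marker counts, 16% of all genes were higher and 15.6% lower in LC against AL. In RF against LC 11.4% were higher. No gene of these marker lists was at 0 in all libraries. In bulk liver, fewer cells of a type and less RNA per cell cannot be told apart.

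On the low-calorie day, Ghr and Igfbp4 fell by about the same factor against AL, 1.49-fold and 1.5-fold, while Igf1 itself stood at 738 ± 49.4 CPM (SD, n = 4) in LC and 754 ± 108 CPM (SD, n = 3) in AL. On the refed day none of the 10 genes was called against AL. Between the phases of the cycle, Ghr rose and Stat5b fell from LC to RF. By edgeR's quasi-likelihood test at an adjusted p of 0.05, LC against AL gave 0 members higher and 2 lower, where 31.5% of all genes were called (16% higher and 15.6% lower). Without adjustment 3 members were higher and 3 lower at p below 0.05, where 43% of all genes passed. DESeq2 gave 0 higher and 2 lower.

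RF against AL gave 0 higher and 0 lower, against 0.0547% of all genes (0.0156% higher and 0.0391% lower), with 0 members at an unadjusted p below 0.05 (10.8% of all genes) and 0 by DESeq2. RF against LC gave 1 higher and 1 lower, where 22.1% of all genes were called (11.4% higher and 10.7% lower), and 3 members passed an unadjusted p of 0.05, where 36% of all genes did. The median log2 change of the 10 genes was 0.02 in LC against AL beside 0.05 over all genes, -0.01 beside 0.01 in RF against AL, and 0.04 beside -0.02 in RF against LC. Groups of libraries did not overlap for 3 members in LC against AL, 1 higher and 2 lower (35.8% of all genes, 18.7% higher and 17.1% lower). They did not overlap for 0 members in RF against AL (18.9%, 9.38% higher and 9.56% lower), and for 4 in RF against LC, 2 higher and 2 lower (34.1%, 17.7% higher and 16.5% lower). The comparisons with AL share the AL libraries, and both contrasts with LC share the LC libraries.

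**Figure D1:**
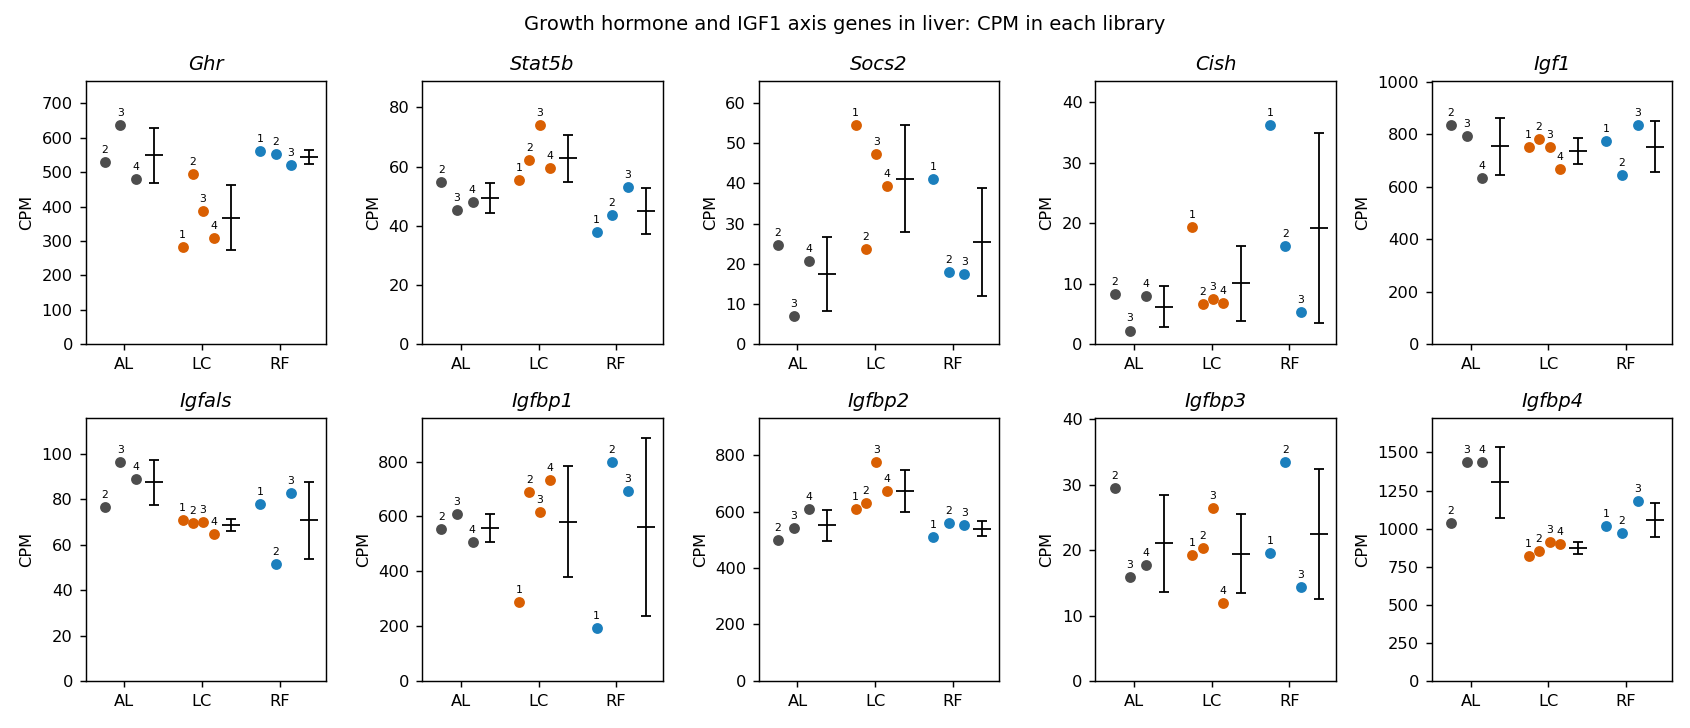
CPM of the 10 genes (y axis, from 0) in each library of AL, LC and RF (x axis), with replicate numbers above the points and the group mean ± SD beside them. Igfbp4 was lower in all 4 LC libraries than in any AL library, while Igf1 overlapped between all 3 groups.

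The receptor was read first. Ghr, which binds growth hormone at the cell surface, stood at 530, 638 and 480 CPM in AL2, AL3 and AL4. In LC it was 283, 494, 388 and 308 CPM in replicates 1 to 4. In RF it was 561, 552 and 522 CPM. LC libraries were lower than AL ones apart from LC2, which lay just above AL4, and all RF libraries lay above all LC libraries. Ghr fell by 0.58 in LC against AL on the log2 scale (SE 0.18, adjusted p = 0.0257) and rose by 0.57 from LC to RF (SE 0.18, adjusted p = 0.0368). RF differed from AL by -0.01 (SE 0.19, adjusted p = 0.992).

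Both Ghr calls sat near the threshold. The fall in LC against AL was lost without AL3 (adjusted p = 0.132), LC1 (0.0690) or LC4 (0.0673), and with library totals alone it was -0.26 (adjusted p = 0.222). Limma on log2(FPKM + 1), on log2(FPKM + 0.1) and on every gene above 0 lost it too (-0.32, adjusted p from 0.0866 to 0.118). The rise from LC to RF was lost without LC1 (0.0939), LC3 (0.0544), LC4 (0.0924), RF1 (0.0966), RF2 (0.1002) or RF3 (0.0753), and with library totals alone it was 0.37 (adjusted p = 0.113). That rise was also lost with limma on every gene above 0 (0.42, adjusted p = 0.0589).

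Stat5b, the transcription factor downstream of the receptor, had 54.8, 45.2 and 48.2 CPM in AL2, AL3 and AL4. In LC it had 55.6, 62.3, 74.1 and 59.4 CPM, and in RF 37.8, 43.6 and 53.2 CPM. Every LC library was above every AL and every RF library. The RF against LC difference was called, and Stat5b fell by 0.49 from LC to RF (SE 0.14, adjusted p = 0.0287). LC against AL was 0.35 (SE 0.14, adjusted p = 0.0800), which passed with library totals alone at 0.66 (adjusted p = 0.0070). RF was -0.14 from AL (SE 0.15, adjusted p = 0.779).

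The call from LC to RF was lost without LC3 (adjusted p = 0.0685), RF1 (0.123) or RF2 (0.0974). Stat5b is uncertain in a further way: its expected counts were not whole in any of the 10 libraries, which marks reads shared with other genes, and Stat5a is its close copy. Stat5a, at 15.2 ± 1.30 CPM in AL (SD, n = 3) and 18.6 ± 2.45 CPM in LC (SD, n = 4), was called in no comparison, with adjusted p = 0.245 in LC against AL and 0.213 in RF against LC.

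The feedback inhibitors varied widely between libraries of a group. Socs2, which blocks signalling at the receptor, read 24.7, 7.02 and 20.7 CPM in AL2, AL3 and AL4. LC libraries read 54.5, 23.6, 47.2 and 39.3 CPM, and in RF 41.0, 17.8 and 17.5 CPM. LC2 overlapped with AL, and the other LC libraries were above all AL ones. On the log2 scale it differed by 1.23 in LC against AL (SE 0.50, adjusted p = 0.0927), 0.54 in RF against AL (SE 0.52, adjusted p = 0.745) and -0.70 in RF against LC (SE 0.48, adjusted p = 0.336). Socs2 was not called by edgeR, and the spread between libraries of one group was wide beside these differences. The LC against AL difference did pass with limma on log2(FPKM + 1) (1.51, adjusted p = 0.0399), on log2(FPKM + 0.1) (1.67, 0.0477) and on every gene above 0 (1.51, 0.0373), and with voom and sample weights, added after seeing the data (1.70, 0.0362).

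Cish, a second STAT5-driven inhibitor, read 8.38, 2.26 and 8.0 CPM in AL2, AL3 and AL4. The LC values were 19.4, 6.59, 7.49 and 6.78 CPM. In RF it read 36.3, 16.3 and 5.29 CPM. The groups overlapped throughout, and RF spanned the widest range, from below AL2 to the highest value of all. The log2 difference was 0.69 in LC against AL (SE 0.74, adjusted p = 0.517), 1.62 in RF against AL (SE 0.78, adjusted p = 0.495) and 0.94 in RF against LC (SE 0.69, adjusted p = 0.364).

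The promoter windows from RefSeq (build GRCm38.p6, 250 bases before and 50 after each annotated start) were searched on both strands for TTCNNNGAA, the palindrome that STAT5 proteins bind, since Cish is a classic STAT5 target. The deposited files were aligned to GRCm39 per the submitters' processing notes, so these coordinates belong to the sequence table alone. Windows were matched by symbol for 9 of the 10 members, all but Socs2 (14 windows). The palindrome was found in 3 of the 14, against 8.3% of all 32851 windows of that length. The Cish stretch below, on chromosome 9 on the plus strand at chr9:107296579-107296678, runs from 80 bases before to 20 bases after the start, with the 2 matches in capitals.
Cish: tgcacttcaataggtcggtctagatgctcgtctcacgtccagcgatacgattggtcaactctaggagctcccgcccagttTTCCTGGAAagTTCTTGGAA
The matches occupy bases 1 to 9 and 12 to 20 counted from the annotated start. The other 2 windows with a match belong to Igfals. A match describes the letters of the window only.

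Igf1, the hormone itself, read 836, 795 and 632 CPM in AL2, AL3 and AL4. Readings in LC were 752, 782, 753 and 667 CPM, and in RF 775, 646 and 836 CPM. The LC values lay wholly within the range of AL. On the log2 scale it differed by -0.03 in LC against AL (SE 0.14, adjusted p = 0.884, 95% interval -0.31 to 0.25 by the normal approximation), -0.00 in RF against AL (SE 0.15, adjusted p = 0.996) and 0.03 in RF against LC (SE 0.14, adjusted p = 0.909). With library totals alone the sign in LC against AL turned, at 0.28 (adjusted p = 0.130). Igf1 has an annotated antisense gene, Igf1os, and Cish has overlapping opposite-strand genes, Gm17040 and Gm17041. The libraries did not keep strand, so reads of such pairs cannot be told apart.

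Igfals encodes the acid-labile subunit, which holds IGF1 and an IGF-binding protein in a large circulating complex. It read 76.8, 96.7 and 89.2 CPM in AL2, AL3 and AL4. In LC it read 70.8, 69.5, 69.8 and 64.7 CPM, and in RF 78.1, 51.4 and 82.9 CPM. All LC libraries were below all AL libraries, and the log2 difference of -0.35 (SE 0.15, adjusted p = 0.0969) was not called. It was -0.31 in RF against AL (SE 0.16, adjusted p = 0.521) and 0.04 in RF against LC (SE 0.15, adjusted p = 0.869). Leaving out RF2 brought the LC against AL difference past the threshold (adjusted p = 0.0433), and with library totals alone it was -0.03.

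Among the carriers, Igfbp4, a secreted protein that restrains IGF action and is cleaved to release it, was the one called under TMM scaling. It read 1037, 1440 and 1439 CPM in AL2, AL3 and AL4. LC libraries read 823, 851, 913 and 899 CPM, and in RF 1014, 971 and 1183 CPM. All LC libraries lay below all AL and all RF libraries. Igfbp4 fell by 0.58 in LC against AL (SE 0.14, adjusted p = 0.0082), and the call held without any one library (adjusted p from 0.0012 to 0.0485). With library totals alone it was -0.26 (adjusted p = 0.132). RF against LC was 0.28 (SE 0.14, adjusted p = 0.180) and RF against AL -0.31 (SE 0.15, adjusted p = 0.492).

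Igfbp2, a carrier known to rise when food is scarce, read 500, 543 and 610 CPM in AL2, AL3 and AL4. The LC values were 609.5, 632, 777 and 673 CPM, and in RF 509, 559 and 551 CPM. LC1 and AL4 were nearly equal, and all RF libraries were below all LC libraries. The log2 difference was 0.29 in LC against AL (SE 0.13, adjusted p = 0.110), -0.03 in RF against AL (SE 0.14, adjusted p = 0.962) and -0.32 in RF against LC (SE 0.13, adjusted p = 0.0998). Neither LC contrast was called under TMM scaling, and both were with library totals alone, at 0.61 (adjusted p = 0.003997) and -0.53 (adjusted p = 0.01355).

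**Figure D2:**
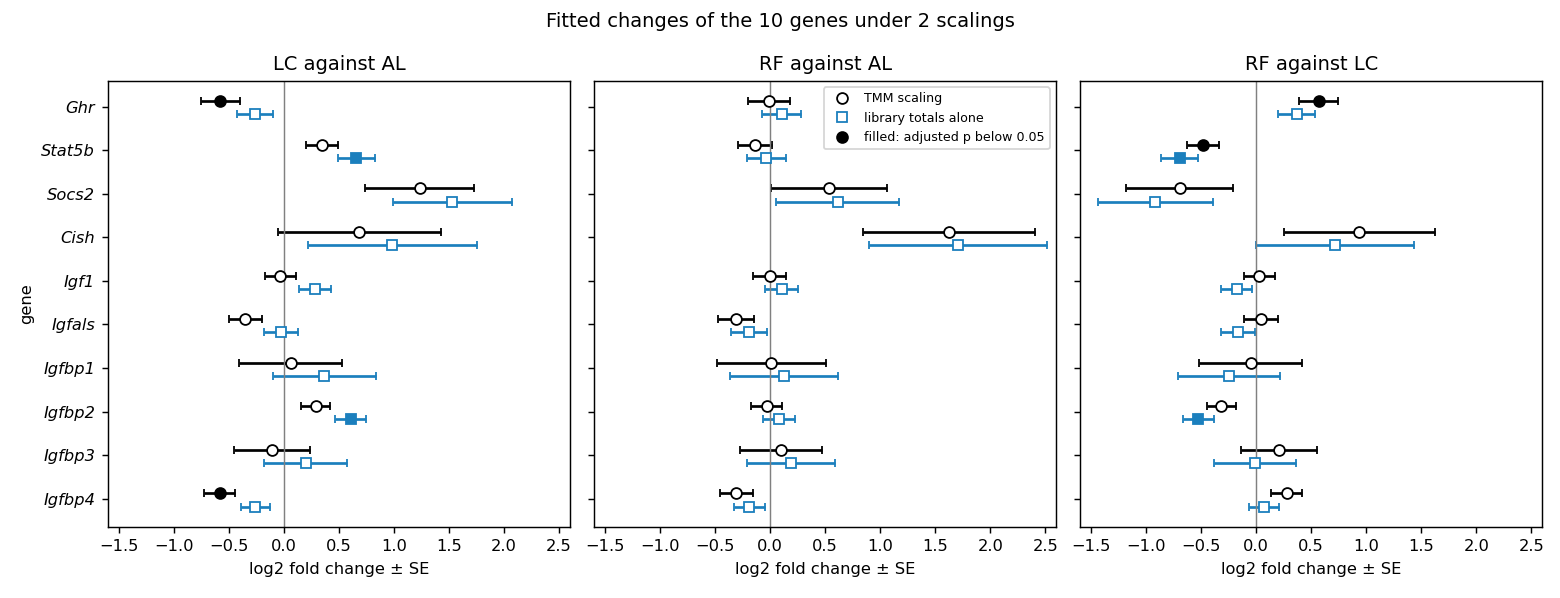
Fitted log2 fold change ± SE (x axis) of the 10 genes (y axis) in the 3 comparisons, under TMM scaling (circles) and library totals alone (squares), filled where the adjusted p was below 0.05. In LC against AL the filled genes were Ghr and Igfbp4 under TMM and Stat5b and Igfbp2 under totals.

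Igfbp1, the carrier that insulin represses and fasting induces, read 555, 611 and 506 CPM in AL2, AL3 and AL4. Readings in LC were 288, 690, 615 and 734 CPM, and in RF 191, 800 and 693 CPM. LC1 and RF1 were the lowest of all libraries, and every other library lay between 506 and 800 CPM. On the log2 scale it differed by 0.06 in LC against AL (SE 0.47, adjusted p = 0.930), 0.01 in RF against AL (SE 0.50, adjusted p = 0.996) and -0.05 in RF against LC (SE 0.47, adjusted p = 0.950). Because insulin acts on Igfbp1 through the element CAAAACA, the promoter windows were searched for it on both strands. It was found in 1 of the 14 member windows, against 6.28% of all windows. That window is the one of Igfbp1, on chromosome 11 on the plus strand, and its last 150 bases before the start, chr11:7197637-7197786 in GRCm38.p6, are shown with the element in capitals.
Igfbp1: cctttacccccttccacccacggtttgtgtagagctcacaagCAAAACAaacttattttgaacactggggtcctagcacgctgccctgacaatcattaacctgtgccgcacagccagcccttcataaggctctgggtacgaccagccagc
The element lies at bases -108 to -102 from the start.

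Igfbp3, the main carrier of IGF1 in blood, read 29.5, 15.8 and 17.7 CPM in AL2, AL3 and AL4. In LC it read 19.3, 20.3, 26.5 and 11.9 CPM, and in RF 19.6, 33.6 and 14.4 CPM. The 3 groups covered nearly the same range. The log2 difference was -0.11 in LC against AL (SE 0.35, adjusted p = 0.836), 0.10 in RF against AL (SE 0.37, adjusted p = 0.949) and 0.21 in RF against LC (SE 0.34, adjusted p = 0.705).

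The members fell into even and uneven genes within groups. The pooled within-group SD of log2 CPM was 0.996 for Cish, 0.736 for Igfbp1, 0.711 for Socs2 and 0.511 for Igfbp3. These stood at the 99.6, 98.7, 98.5 and 95.1 percentiles of the 12789 genes, whose median was 0.228. Igfbp2 at 0.133 and Igf1 at 0.167 lay at the 12.1 and 25.04 percentiles. LC1 and RF1 had the lowest Igfbp1 and the highest Cish and Socs2 of their groups, while Igfbp3 was neither highest nor lowest in them. AL3 had the lowest Socs2 and Cish. Socs2 and Cish ranked the libraries in the same order in all 3 groups (2, 4, 3 in AL, 1, 3, 4, 2 in LC and 1, 2, 3 in RF, from high to low). Igfbp1 made up 14.9% of the summed FPKM of the 4 carriers in LC1 and 11.1% in RF1, and 20.5% to 33.7% in the other libraries.

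**Figure D3:**
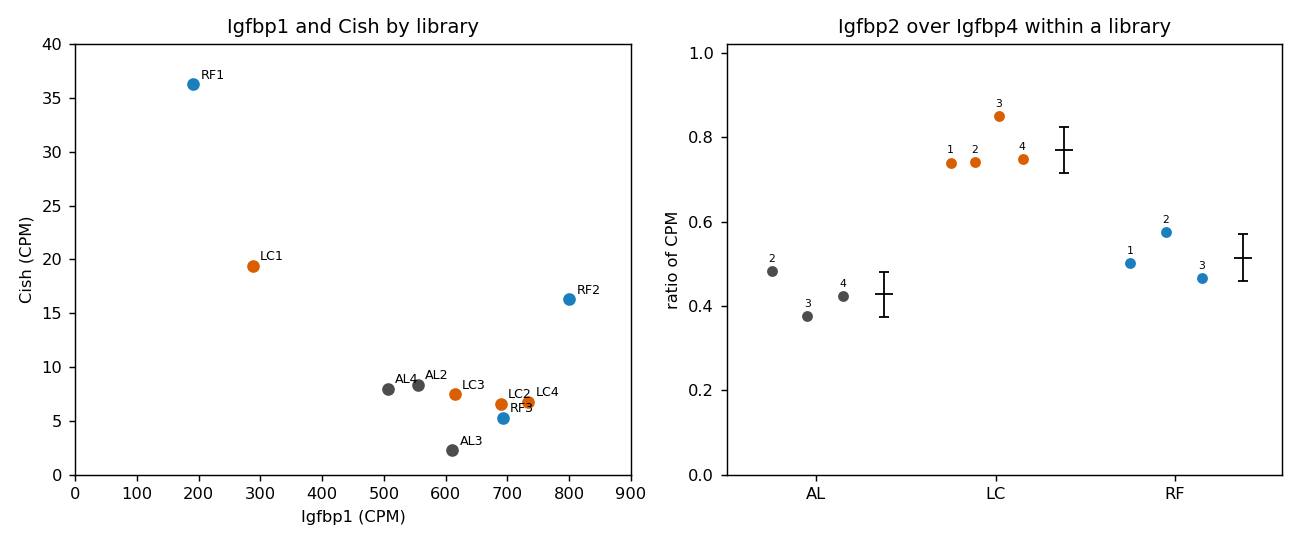
Left, Cish against Igfbp1, both in CPM, one point per library, with LC1 and RF1 at the lowest Igfbp1 and highest Cish. Right, the ratio of Igfbp2 to Igfbp4 CPM in each library with the group mean ± SD, where all 4 LC libraries (0.741 to 0.851) lie above AL (0.377 to 0.483) and RF (0.466 to 0.576).

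Ratios of 2 genes within a library do not depend on how libraries are scaled. The overlap counts, log2 differences and p-values below were taken after 0.5 was added to each CPM. This leaves some dependence on scaling, most for low genes. Of the 45 ratios among the 10 genes, 10 did not overlap between LC and AL, where 33.3% of all gene pairs did not, 0 between RF and AL (17.6%) and 5 between RF and LC (31.9%). The ratio of Igfbp2 to Igfbp4, chosen after the values were seen, was 0.483, 0.377 and 0.424 in AL2, AL3 and AL4. In LC it was 0.741, 0.742, 0.851 and 0.749, and in RF 0.502, 0.576 and 0.466. All LC ratios were above all AL and RF ratios. On the log2 scale it differed by 0.85 in LC against AL and -0.59 in RF against LC, each with an exact two-sided permutation p of 0.0571, the smallest that 4 against 3 libraries can give. The ratio of Ghr to Stat5b was 9.68, 14.1 and 9.96 in AL, 5.09, 7.93, 5.23 and 5.18 in LC, and 14.8, 12.7 and 9.82 in RF. This ratio, also chosen after the values were seen, was lower in every LC library than in any other, by a log2 difference of -0.94 from AL (exact permutation p = 0.0571). Any ratio without overlap between 4 and 3 libraries gives this p. For ratios chosen after the values were seen, the p therefore adds no support.

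Levels were compared between genes by the deposited FPKM, which is per transcript length and rests on library totals. In AL the order was Igfbp4 (mean 633), Igfbp2 (627), Igfbp1 (394), Ghr (201), Igf1 (100.4), Igfals (41.5), Stat5b (9.48), Igfbp3 (8.71), Socs2 (7.91) and Cish (2.13). Igfbp4 and Igfbp2 overlapped between libraries, as did Stat5b, Igfbp3 and Socs2, and Socs2 and Cish, and the steps from Igfbp2 down to Stat5b did not overlap. In LC, Igfbp2 (mean 1028, 921 to 1244) was above Igfbp4 (mean 526, 490 to 582) in every library, and Igfbp1, from 259 to 616, overlapped with Igfbp4. Socs2 (22.5), Stat5b (14.9), Igfbp3 (9.96) and Cish overlapped with their neighbours. In RF, Igfbp2 averaged 655, Igfbp4 553 and Igfbp1 428 FPKM, and Igfbp1 overlapped with both Igfbp4 and Ghr. The hormone gene, Igf1, kept the fifth place in each group, at 123 in LC and 108 in RF, so the messages of 3 carriers were above it throughout in mean FPKM. Cish was lowest in each group, at 4.2 in LC and 6.76 in RF.

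Around the 10 genes, 8 lists of the pathway held 132 other genes, of which 105 were tested. In LC against AL 15 were higher and 18 lower, 31.4% of those tested beside 31.5% of all genes. In RF against LC 14 were higher and 10 lower, 22.9% beside 22.1%. In RF against AL 0 were called by edgeR, with 7 higher and 3 lower at an unadjusted p below 0.05, while DESeq2 called Onecut1 higher and Acot3 lower. The pathway as a whole thus changed about as often as the table. By direction, 16% of all genes were called higher and 15.6% lower in LC against AL. From LC to RF 11.4% were called higher and 10.7% lower.

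Of 8 measured other IGF ligands, receptors and carriers, 2 fell and 0 rose in LC against AL (15.6% and 16% of all genes). Igfbp7, a related secreted protein, fell by 0.55 (SE 0.18, adjusted p = 0.0321), and Igfbp5 by 1.05 (SE 0.36, adjusted p = 0.0413). From LC to RF, Igfbp7 rose by 1.08 (SE 0.18, adjusted p = 0.0018), and its range moved from 23.1 to 37.4 CPM in LC to 53.3 to 70.6 CPM in RF. The summed stellate cell markers moved with it in this contrast, from 276 to 365 CPM in LC to 412 to 467 CPM in RF. In LC against AL, where Igfbp7 fell, 1 of 13 stellate markers was higher and 1 lower. Summed endothelial markers were 443 to 462 CPM in LC, 312 to 327 CPM in AL and 398 to 479 CPM in RF. Of 14 endothelial markers, 5 were higher and 0 lower in LC against AL. From LC to RF 3 were higher and 2 lower (11.4% and 10.7% of all genes). The part of either cell type was not tested. The receptors Igf1r and Insr were not called in LC against AL (adjusted p = 0.273 and 0.507). The fall of Igfbp7 was lost without AL3 (0.114), AL4 (0.117), LC2 (0.0718) or LC4 (0.0847), with library totals alone (-0.22, adjusted p = 0.396), on the FPKM scales (-0.27, 0.301 to 0.388) and with the replicate block (0.0578). That of Igfbp5 shrank to -0.44 without AL3 and was lost (0.342). It was also lost without LC2 (0.0674), LC3 (0.0835), LC4 (0.0923), RF2 (0.0535) or RF3 (0.0520). The same held with totals alone (-0.69, 0.119), on the FPKM scales (-0.57 to -0.29, 0.171 to 0.242) and with only the 2 groups fitted (0.0563). Of 3 measured genes that cleave carriers, the metalloprotease Mmp14 rose in LC by 0.66 (SE 0.13, adjusted p = 0.0029).

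Of 16 receptor signalling genes, 3 rose and 2 fell in LC against AL (16% and 15.6% of all genes). The JAK-family kinase Tyk2 rose by 0.65 (SE 0.12, adjusted p = 0.0022), as did the adaptor Sh2b1 by 0.41 (SE 0.13, adjusted p = 0.0254). The third, Src, was named after its values were seen (0.75, adjusted p = 0.0470). The adaptor Grb2 fell by 0.53 (SE 0.11, adjusted p = 0.0039). Jak2, the kinase on Ghr itself, was 0.35 higher (SE 0.13, adjusted p = 0.0609) and was not called.

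In RF against LC 2 of these 16 rose and 2 fell (11.4% and 10.7% of all genes). Among those that rose was Grb2, by 0.35, and those that fell were Tyk2, by 0.46, and Sh2b1, by 0.47. In LC against AL, the Src call was lost in 15 of 22 alternatives, with adjusted p from 0.0516 to 0.129. Sh2b1 was lost without AL3 (0.113), AL4 (0.0503) or LC1 (0.0692). Grb2 was lost in LC against AL with totals alone (-0.21, adjusted p = 0.214) and on the FPKM scales (-0.21 to -0.20, 0.212 to 0.221), and in RF against LC with totals alone (0.15, 0.436) and on the FPKM scales (0.13 to 0.14, 0.459 to 0.481). In RF against LC, Tyk2 was lost without RF2 (0.0622) or RF3 (0.0767), Sh2b1 without LC1 (0.0539), RF2 (0.09996) or RF3 (0.0775), and Grb2 without AL3 (0.0535), LC1 (0.0654), LC2 (0.0769), LC4 (0.0733), RF1 (0.111), RF2 (0.0564) or RF3 (0.155).

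Of 16 genes that brake the signal, 3 rose and 1 fell in LC against AL (16% and 15.6% of all genes). Socs3, the inhibitor induced by cytokines, stood at 12.2, 8.66 and 7.38 CPM in AL, 44.5, 16.3, 22.7 and 29.4 CPM in LC, and 13.9, 11.4 and 11.2 CPM in RF. All LC libraries lay above all others, and Socs3 rose by 1.59 (SE 0.31, adjusted p = 0.0038) and fell by 1.21 from LC to RF (SE 0.30, adjusted p = 0.0172). The phosphatase Ptprf rose by 0.50 (adjusted p = 0.0242) and Pias3, which inhibits STAT proteins, by 0.72 (adjusted p = 0.0260), while the phosphatase Ptpn6 fell by 0.58 (adjusted p = 0.0160). Ptprf was lost without AL2 (0.0822), LC1 (0.0544) or LC2 (0.0557), and Pias3 without AL2 (0.0819), AL3 (0.0864) or LC1 (0.0754). Ptpn6 was lost without AL3 (0.0696) or AL4 (0.0954), with totals alone (-0.26, adjusted p = 0.239) and on the FPKM scales (-0.25 to -0.22, 0.236 to 0.274), and the fall of Socs3 from LC to RF without RF2 (0.0705) or RF3 (0.0664).

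Of 10 measured endocrine inputs to the axis, 3 rose and 0 fell in LC against AL (16% and 15.6% of all genes). The deacetylase Sirt1 rose by 1.04 (SE 0.26, adjusted p = 0.0113) and fell by 0.83 from LC to RF (adjusted p = 0.0376). Fgfr4, the bile acid signal receptor, rose by 0.56 (adjusted p = 0.0326), and Lepr, the leptin receptor, by 1.58 (adjusted p = 0.0440). The Sirt1 rise was lost without AL3 (0.0505), and its fall without AL2 (0.0541), AL3 (0.0550), AL4 (0.0549), LC1 (0.0672), RF2 (0.143) or RF3 (0.123). Fgfr4 was lost without AL3 (0.153), AL4 (0.116), LC1 (0.0879) or LC4 (0.0532), and Lepr without AL2 (0.101), AL3 (0.150), AL4 (0.104), LC3 (0.0687) or LC4 (0.0724). With only the 2 groups fitted, Fgfr4 (0.0535) and the fall of Sirt1 (0.0771) were lost, and Lepr was lost with no filter (0.0858) and with voom and sample weights (0.0672).

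Of 17 transcription factors tied to growth hormone action in liver, 3 rose and 1 fell in LC against AL (16% and 15.6% of all genes). Nr1i3, the nuclear receptor CAR, stood at 269, 356 and 284 CPM in AL, 653, 691, 561 and 680 CPM in LC, and 277, 243 and 262 CPM in RF. Its LC range was apart from both others, and it rose by 1.09 (SE 0.14, adjusted p = 0.0003) and fell by 1.31 from LC to RF (SE 0.14, adjusted p = 0.0001). Cux2, a repressor that growth hormone controls in a sex-dependent way, rose by 2.40 (SE 0.68, adjusted p = 0.0239), with 1.04, 0.702 and 1.38 CPM in AL and 13, 2.03, 2.69 and 4.64 CPM in LC. Its highest value was in LC1, and without that library the log2 difference was 1.57 from AL to LC and -2.18 from LC to RF. Foxo3 fell by 0.84 (adjusted p = 0.0480).

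From LC to RF, 1 of the 17 rose and 4 fell (11.4% and 10.7% of all genes). Onecut1, a hepatocyte factor known to respond to growth hormone, rose by 3.96 (SE 0.65, adjusted p = 0.0028), from 0.502, 0.492, 0.269 and 0.126 CPM in LC to 9.53, 5.39 and 1.61 CPM in RF, beside 1.78, 0.390 and 0.759 CPM in AL. Its highest library was RF1, which also had the most Cish and Socs2 of its group, and without RF1 the rise was 3.31. Cux2 fell by 3.02 (adjusted p = 0.0163) and Tox by 0.63 (adjusted p = 0.0120), beside Nr1i3. The Cux2 rise was lost without AL2 (0.0675), AL3 (0.102) or AL4 (0.0628), and its fall without RF1 (0.0564) or RF2 (0.0714). Foxo3 was lost without AL2 (0.144), AL3 (0.141), LC1 (0.0825), LC4 (0.101) or RF3 (0.0589), with totals alone (-0.53, 0.169), on the FPKM scales (-0.57 to -0.52, 0.137 to 0.192) and with no filter (0.0842). Tox was lost without RF2 (0.0683). On log2(FPKM + 1), which understates changes of low genes, Cux2 was lost in both contrasts (0.74, adjusted p = 0.0642, and -0.78, 0.0672).

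**Figure D4:**
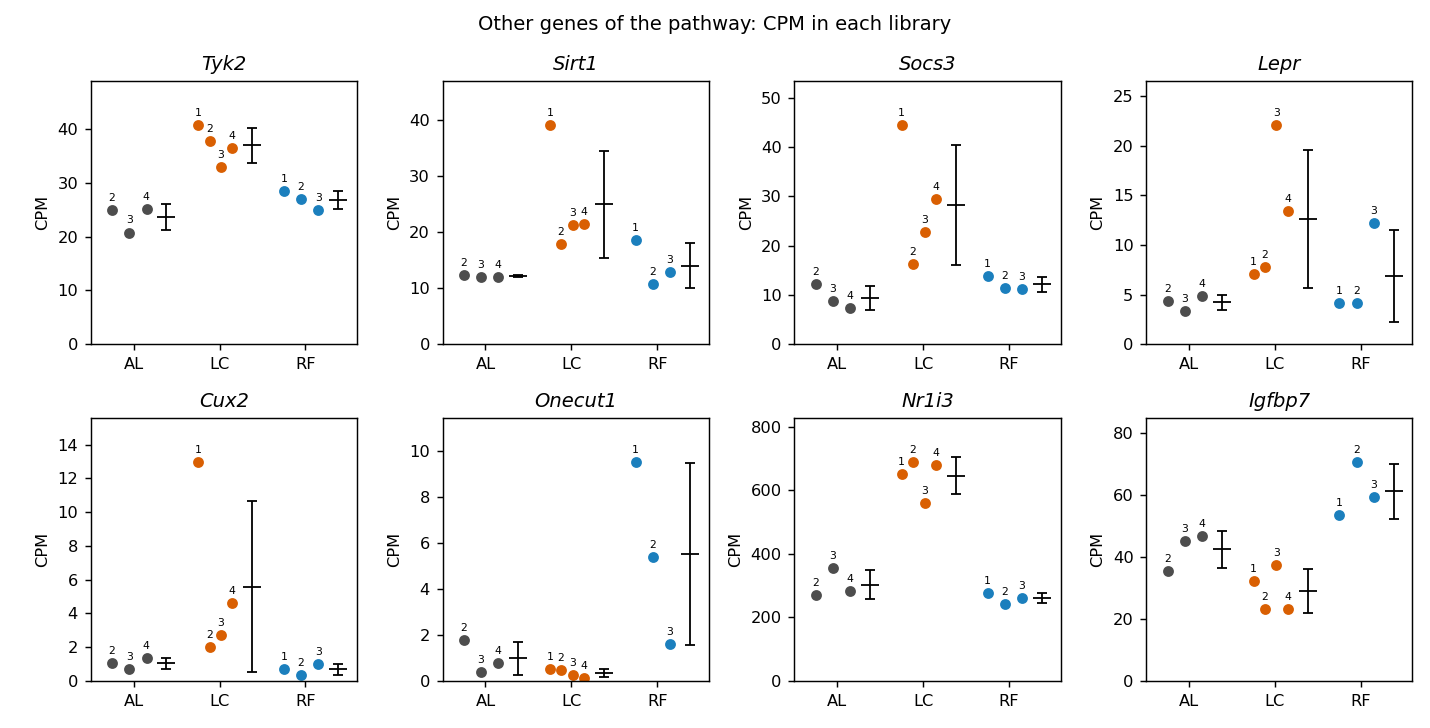
CPM (y axis, from 0) of 8 other pathway genes in each library of AL, LC and RF (x axis), with replicate numbers and group mean ± SD. Socs3, Nr1i3 and Tyk2 were higher in every LC library than in any AL or RF library.

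Growth hormone pulses help set which liver genes are male-biased or female-biased. Growth hormone levels and STAT5 activity are not part of these data. The labels do not give the sex of the mice. Of 24 male-biased genes, 11 fell and 0 rose in LC against AL (15.6% and 16% of all genes). Their median log2 change was -0.94 beside 0.05 over all genes. The list was chosen with earlier results of these data known, and near-identical copies in it count as separate genes. With library totals alone 10 fell and 2 rose (Susd4 and Gstp1), with a median of -0.61. From LC to RF 9 rose and 0 fell (11.4% and 10.7% of all genes), with a median of 0.91. With totals alone 9 rose and Gstp1 fell. In RF against AL 0 of the 24 were called (0.0547% of all genes), with 2 higher and 0 lower at an unadjusted p below 0.05 and 0 by DESeq2. In LC against AL, DESeq2 called 2 of the 24 higher and 11 lower. Under TMM the hepatocyte markers moved the same way: 9 of 14 fell in LC against AL and 7 rose from LC to RF. With library totals alone, 2 of them fell and 1 rose in LC against AL, and 2 rose from LC to RF. Their part in the counts of male-biased genes was not tested.

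Ugt2b1, a glucuronosyltransferase, fell by 1.05 (SE 0.14, adjusted p = 0.0003), from 249.1 to 314 CPM in AL to 121 to 142 CPM in LC. Mup20, a major urinary protein, fell by 1.07 (SE 0.18, adjusted p = 0.0010), from 6116 to 9409 CPM to 2890 to 4012 CPM, and Mup21 and Mup3 fell by 0.97 and 0.90. From LC to RF, Ugt2b1 rose by 1.34, Mup20 by 1.13, the fatty acid hydroxylase Cyp4a12a by 1.16 and the coenzyme A hydrolase Nudt7 by 1.65. None of these calls was lost under any of the 22 alternatives. The Mup, Ugt2b and Cyp4a families hold near-identical copies, so reads may be split between them and single values are uncertain.

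Of 11 measured female-biased genes, 2 rose and 1 fell in LC against AL (16% and 15.6% of all genes). The monooxygenase Fmo2 rose by 0.82 (adjusted p = 0.0152) and the cytochrome Cyp2b9 by 2.52 (adjusted p = 0.0343), while the steroid hydroxylase Cyp17a1 fell by 2.72 (SE 0.36, adjusted p = 0.0007), from 14.98 to 29.7 CPM in AL to 1.70 to 5.40 CPM in LC. From LC to RF Cyp17a1 rose by 2.85, and Fmo2 fell by 1.01 and the acyl-CoA hydrolase Acot3 by 1.44. The list therefore held changes in both directions. Fmo2 was lost in LC against AL without AL3 (0.0528), and Cyp2b9, which has close copies, without AL2 (0.0764), AL4 (0.116), LC3 (0.0542), RF1 (0.0554) or RF3 (0.0504). Cyp2b9 was also lost with no filter (0.0600) and with only the 2 groups fitted (0.0601), and Fmo2 with the replicate block (0.0515). Without AL3 the Cyp2b9 rise was 3.22. The fall of Acot3 was lost without RF2 (0.0706) or RF3 (0.0501).

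**Figure D5:**
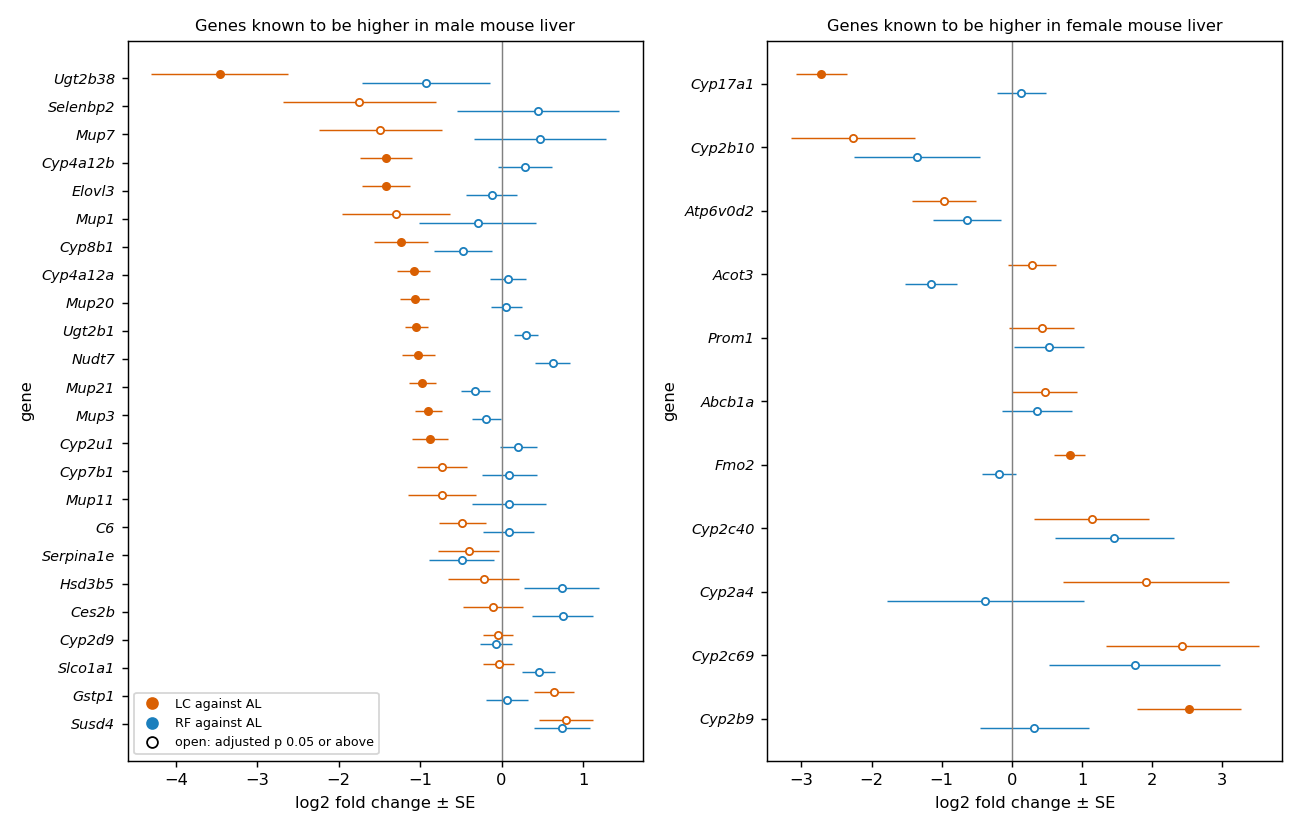
Log2 fold change ± SE (x axis) of genes known as male-biased and female-biased in mouse liver (y axis), in LC against AL and RF against AL, with open points where the adjusted p was 0.05 or above. In LC against AL 11 of 24 male-biased genes were called, all lower, where 15.6% of all genes were called lower. In RF against AL no gene of either list was called, where 0.0547% of all genes were.

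Genes with the profile most like each called member, and like Igf1, were read across the 10 libraries among the 9305 genes averaging 5 CPM or more. Igfbp4 was closest to Acat1, a mitochondrial thiolase (Pearson r 0.979), Cutc (0.975) and Selenop, the plasma selenoprotein (0.973). Within groups, after the group means were removed, these were 0.926, 0.965 and 0.910. Ghr was closest to Sirt5, a mitochondrial deacylase (0.976), Trim44 (0.970) and Lancl2 (0.958). Stat5b was closest to Fam91a1 (0.942) and Bmt2 (0.936), and Igf1 to Dtwd1 (0.877), Zfp518a (0.851) and Smarcad1 (0.813). The points share libraries, scaling and group differences, and the values describe likeness only.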

How the data were processed

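Liver RNA of 10 samples was enriched for poly(A), made into libraries without strand and sequenced on a BGI DNBSEQ platform, with RNA integrity numbers of 6.6 to 8.5, per the labels' protocols. The authors deposited expected counts and FPKM per gene. Per the submitters' processing notes, HISAT and Bowtie2 were used with GRCm39. No source used here names the counting program or the annotation. Of the expected counts deposited, 10.9% were not whole, and all were rounded. 253 of 17359 genes had no count. Counts were tested with edgeR 4.0.16 (R 4.3.3; filterByExpr, TMM, quasi-likelihood F test over all 3 groups, Benjamini-Hochberg adjustment over 12789 genes, threshold 0.05). Log2 fold changes carry a model SE. Alternatives used DESeq2 1.42.0, limma 3.58.1 on log2(FPKM + 1) or log2(FPKM + 0.1), other scalings, other filters, a replicate block and each library left out. Ratios used an exact permutation test.

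The 10 members and the gene lists were chosen with earlier results of these data known. Every member is named. Of each pathway list, up to 4 called genes with the smallest p in LC against AL or RF against LC are named, and for each called member and Igf1 the 3 genes with the highest r. A few genes that meet these rules are not reported here. Replicates of a group were checked as separate libraries: the chi-square of counts per degree of freedom between them was 27.0 to 60.8. On simulated counts, changes of 0.5, 1 and 2 on the log2 scale were each given to 65 to 67 genes per comparison. The test recovered 7.46%, 61.2% and 92.4% of them, in that order, in LC against AL (12612 genes). It recovered 3.03%, 65.2% and 89.4% in RF against AL (12651), and 10.6%, 80.3% and 90.8% in RF against LC (12646). In the deposited counts, 31.5% of all genes were called in LC against AL and 22.1% in RF against LC. Recovery with that many genes changed was not tested.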

Additional observations from a re-analysis of the deposited data

Results flagged for a closer look

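Cish in LC1, at 19.41 CPM, stood apart from the other LC libraries, which lay between 6.59 and 7.49 CPM. The gap to the nearest was 0.93 of the range of the group. Only LC, with 4 libraries, is large enough for this comparison, and chance alone marks about 1 in 20 groups, with 10 genes read here.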

How the results depend on the processing

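Which members were called changed with the setting. In LC against AL, members called higher and lower were 2 and 0 with library totals alone and 3 and 0 on log2(FPKM + 1), on log2(FPKM + 0.1) and on every gene above 0. Pathway genes called higher were then 31, 27, 27 and 24. Calls over all genes split 4395 higher and 686 lower with totals, beside 2045 and 1989, and 673 and 2724 beside 1452 and 1369 in RF against LC. In the order totals, FPKM + 1, FPKM + 0.1 and every gene above 0, signs turned in LC against AL for Igf1 (0.28, 0.30, 0.30, 0.30) and Igfbp3 (0.20, 0.18, 0.20, 0.18). In RF against AL they turned for Igf1 (0.10, 0.11, 0.11, 0.11), Igfbp2 (0.080, 0.066, 0.066, 0.066) and Ghr (0.11, 0.11, 0.11, 0.11), and for Igfbp1 on the FPKM scales (-0.13, -0.13, -0.13). In RF against LC they turned for Igf1 (-0.18, -0.19, -0.19, -0.19), Igfbp3 (-0.00982, -0.025, -0.028, -0.025) and Igfals (-0.16, -0.18, -0.19, -0.18). There, 2 members were lower in all 4 settings, 0 were higher with totals and with every gene above 0, and pathway genes lower were 19, 18 and 19 in the first 3. The cause of these changes was not tested. In RF against AL, Igfbp1 was -0.011 with DESeq2 and with relative log expression size factors. Genes called there were 99 with DESeq2, with 1 pathway gene higher and 1 lower, 13 without a filter, and 1, 1 and 3 on the FPKM scales, beside 7.

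Whether replicate numbers pair the libraries cannot be told from these values. Same-numbered deviations correlated at 0.30, 0.22 and 0.05 between LC and RF, where unlike-numbered ones ran from -0.23 to 0.17. Between AL and LC same-numbered ones were at 0.02, -0.03 and 0.11, and unlike-numbered ones ran from -0.14 to 0.12. Between AL and RF same-numbered ones were at -0.06 and 0.02, and unlike-numbered ones ran from -0.056 to 0.045. With the replicate block, 1 member was higher in LC against AL (Stat5b, 0.40, adjusted p = 0.0383), Igfbp2 was 0.051 and Igfbp3 -0.066 in RF against AL, and Igf1 was -0.0430 in RF against LC.

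Of settings chosen after seeing the data, leaving out LC1 and RF1 together gave 1 member and 9 pathway genes in LC against AL (lower and higher), 1 gene in all in RF against AL, and in RF against LC 0 members higher, 0 lower, 5 pathway genes lower and 1123 genes in all. Igfbp2 was then 0.011 in RF against AL, and Igfbp1 0.13 and Igfals -0.0192 in RF against LC. Voom with sample weights gave 2 members higher in LC against AL (Stat5b and Socs2), with Igfbp1 at -0.059 and Igfbp3 at 0.054, and 50 genes in RF against AL, with Igf1 at 0.052 and Igfbp1 at -0.15.

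With each library left out in turn, members lower in LC against AL were 1 to 3, genes called 2110 (without AL3; 2557 without AL4) to 4353 and pathway genes higher 7 (without AL3; 9 without AL4) to 17. Genes called in RF against AL were 1 to 13. In RF against LC, members higher and lower were each 0 to 1, genes called 1435 (without RF2; 1642 without RF3) to 3141, and pathway genes lower 3 (without RF2; 6 without RF3) to 13. Signs turned in LC against AL for Igf1 (-0.14 to 0.047), Igfbp1 (-0.070 to 0.29) and Igfbp3 (-0.29 to 0.22). In RF against AL they turned for Igf1 (-0.12 to 0.095), Igfbp1 (-0.33 to 0.42), Igfbp2 (-0.095 to 0.050), Igfbp3 (-0.31 to 0.42) and Ghr (-0.099 to 0.11), and in RF against LC for Igf1 (-0.057 to 0.13), Igfbp1 (-0.39 to 0.36), Igfbp3 (-0.20 to 0.44) and Igfals (-0.089 to 0.23).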
